A study of Rattus norvegicus with 6 samples.

Results

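Glycolysis and glycogen turnover were followed through 40 genes in primary ventricular myocytes of newborn Sprague-Dawley rats, 1 to 2 days old and labelled male, in which uc.323 was targeted by RNA interference. The 40 genes were listed by name, as glucose and lactate carriers, glycolytic enzymes, pyruvate-handling enzymes and glycogen enzymes with their muscle isoforms. All 40 had a probe on the array among 15168 named genes, and 38 of them were bright enough to be tested beside the 11580 named genes tested in all. Phkg1 and Pfkfb4 were not tested. The si-uc.323 group received an siRNA against uc.323, a transcribed ultraconserved region, and the si-scramble group a scrambled siRNA, each at 50 nmol/L and 3 samples per group. The siRNA against uc.323 is given in the labels, without its dTdT overhang, as

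si-uc.323 siRNA: gguaaguaauuucagcaau

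Cells of both groups were plated after a preplating step against fibroblasts, cultured with bromodeoxyuridine for 36 h, transfected for 3 h in serum-free medium and kept without serum for a further 21 h, so that serum starvation was shared by both groups. The samples are described as independent experiments, without the litter behind each culture, and the p-values therefore rest on the variation among these 6 samples, part of which may be technical. No probe was matched to uc.323, and its knockdown was not checked here.

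Glycolysis splits glucose into pyruvate in the cytosol, and glycogen is the stored form of glucose that muscle breaks down when contraction outpaces supply. Several steps are run by sets of related enzymes, of which a muscle form replaces a widely expressed or fetal form as striated muscle matures. The newborn heart still relies much on glucose and lactate, and the adult heart mainly on fatty acids. The comparison asks how the levels of these genes differ when uc.323 is targeted.

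Each array was measured on 1 colour, and levels are given as log2 intensity relative to the 75th percentile of its array. Such a level can be compared between samples for 1 gene, but not between genes. The labels name no slides, and arrays whose headers share a scan identifier were taken as 1 slide. By that reading slide 2 held si-uc.323 replicates 2 and 3, and slide 1 held si-uc.323 replicate 1 with the whole si-scramble group. Between 71.8% and 86.5% of probes were well above background on an array, the 2 highest values being those of slide 2 (78.2% and 86.5%). Slide and group were therefore confounded in part, and the value of si-uc.323 replicate 1 against si-scramble is the comparison within 1 slide. Markers of cardiac myocytes were bright on every array, with 9 of 10 listed genes tested. Their summed level (linear intensity over the 75th percentile) was 239.6 to 263.1 on si-uc.323 arrays and 280.9 to 291.9 on si-scramble arrays, so the groups did not overlap. In bulk samples fewer cells of a type and less RNA per cell cannot be told apart. Among these markers Actc1, cardiac actin, fell (log2 fold change -0.63 ± 0.11, SE, limma adjusted p = 0.0314) and none rose. That is 11.1% lower, against 2.89% of all named genes. Actc1 read 5.43, 5.24 and 5.44 on the si-uc.323 arrays, against 5.93, 6.02 and 6.05 on the si-scramble arrays. Most of the difference between the summed levels came from Actc1, and without it the sums overlapped. The 9 had a median log2 fold change of -0.29, with 5 negative and 4 positive values. In 5 of them (55.6%, against 19% of all named genes) si-uc.323 lay wholly below si-scramble. In 1 (11.1%, against 20.1%) it lay wholly above, Myh7, the fetal myosin heavy chain of the rodent ventricle (0.29, limma adjusted p = 0.147). The other positive values were small, at 0.05 for Myh6 and 0.01 for Tnnt2 and Myl2. The 8 fibroblast markers summed to 125.6 to 157.0 on si-uc.323 arrays and 123.5 to 133.7 on si-scramble arrays. Of them 1 rose, Postn (0.69), or 12.5% against 3.26% of all named genes. Their median log2 fold change was 0.17, with 6 positive and 2 negative values. In 2 of them (25%, against 20.1%) si-uc.323 lay wholly above si-scramble. The 6 smooth muscle and mural markers summed to 39.2 to 46.1 on si-uc.323 arrays and 36.4 to 40.8 on si-scramble arrays. None passed the test, but all 6 values were positive (median log2 fold change 0.42). Tagln (0.63), Myh11 (0.56) and Rgs5 (0.42) had separate groups, 3 of 6 (50%) against 20.1% of all named genes wholly above. The 5 tested endothelial markers summed to 5.55 to 8.59 on si-uc.323 arrays, below the 11.0 to 12.4 of si-scramble arrays, and none passed singly. That sum was mostly Kdr (-0.76), and the median of the 5 was -0.10, with 3 negative and 2 positive values. The larger positive value, Tie1 (0.73), came from a dim probe well above background on 3 si-uc.323 arrays and 0 si-scramble arrays. Tie1 was therefore tested only through the si-uc.323 group, where it read higher. The part of these differences in the results on glucose genes was not tested. Leukocyte markers (6 tested) overlapped between groups, at 13.8 to 17.8 on si-uc.323 arrays and 15.7 to 16.4 on si-scramble arrays.

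The enzymes and carriers of glycolysis that are typical of muscle were lower in si-uc.323 cells for 3 genes, and none of the 38 tested members rose. Eno3, the muscle enolase of the lower glycolytic chain, fell by 46.8%, which corresponds to 0.53 of its si-scramble level. Pgam2, the muscle phosphoglycerate mutase one step above enolase, was at 0.59 of its si-scramble level, and Slc16a3, a carrier that exports lactate from glycolytic muscle, at 0.66. Over all 11580 named genes tested, 6.15% passed the limma test after Benjamini-Hochberg adjustment over all features (threshold 0.05), 2.89% lower and 3.26% higher. Of the tested members 7.89% (3 of 38) were lower and 0% (0 of 38) higher. At an unadjusted p under 0.05 in limma 12 of 38 members (31.6%) were lower and 2 (5.26%) higher, against 13.3% and 16.7% of all named genes. The median log2 fold change of the 38 members was -0.16, against 0.02 over all named genes tested, and 29 of 38 values (76.3%) were negative, against 47.3% of all named genes. The 3 values of si-uc.323 lay wholly below those of si-scramble for 15 members (39.5%), against 19% of all named genes, and wholly above for 2 (5.26%), against 20.1%. Relative to the si-scramble mean, the members had medians of -0.16 (replicate 1), -0.22 (replicate 2) and -0.15 (replicate 3) in si-uc.323 cells.

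Eno3 read 0.17, 0.29 and 0.02 (log2 level) on the si-uc.323 arrays, against 1.14, 1.1 and 0.97 on the si-scramble arrays. Every si-uc.323 sample was therefore more than the spread of either group below every si-scramble sample. The log2 fold change was -0.91 ± 0.12 (SE, n = 3 and 3 arrays; limma adjusted p = 0.0202), with an unadjusted 95% interval of -1.19 to -0.63. Within slide 1, si-uc.323 replicate 1 alone stood at -0.90. Pgam2 read -1.04, -1.19 and -1.2 on the si-uc.323 arrays, against -0.44, -0.26 and -0.47 on the si-scramble arrays, again without overlap. Its log2 fold change was -0.75 ± 0.12 (limma adjusted p = 0.0266), and -0.64 within slide 1. Slc16a3 read 1.22, 1.35 and 1.05 on the si-uc.323 arrays, against 1.79, 1.80 and 1.82 on the si-scramble arrays. The si-scramble samples lay close together and the si-uc.323 samples were spread below them (SD 0.15 with si-uc.323 and 0.02 with si-scramble). The log2 fold change of Slc16a3 was -0.60 ± 0.12 (limma adjusted p = 0.0376), and -0.58 within slide 1. Each of these 3 genes was represented by 1 probe.

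The calls of all 3 genes were lost when any 1 si-scramble array was left out, while the sizes held. Without si-scramble replicates 1, 2 and 3 the limma adjusted p of Eno3 was 0.114, 0.0917 and 0.131, that of Pgam2 0.12, 0.104 and 0.132, and that of Slc16a3 0.153, 0.142 and 0.184. The log2 fold change over those fits was -0.96 to -0.88 for Eno3, -0.79 to -0.69 for Pgam2 and -0.61 to -0.59 for Slc16a3. Over all named genes these fits called 0, 13 and 0 genes, with 2349, 2406 and 2098 at an unadjusted p under 0.05 in limma. Without a si-uc.323 array Eno3 passed each time, Pgam2 missed without replicate 3 (adjusted p = 0.0502) and Slc16a3 missed without replicate 1 (0.0747) and replicate 3 (0.0566). In a fit of slide 1 alone, where the single si-uc.323 sample is assumed to vary like the controls, none of the 3 passed (limma adjusted p = 0.065 for Eno3, 0.0819 for Pgam2 and 0.0718 for Slc16a3).

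**Figure D1:**
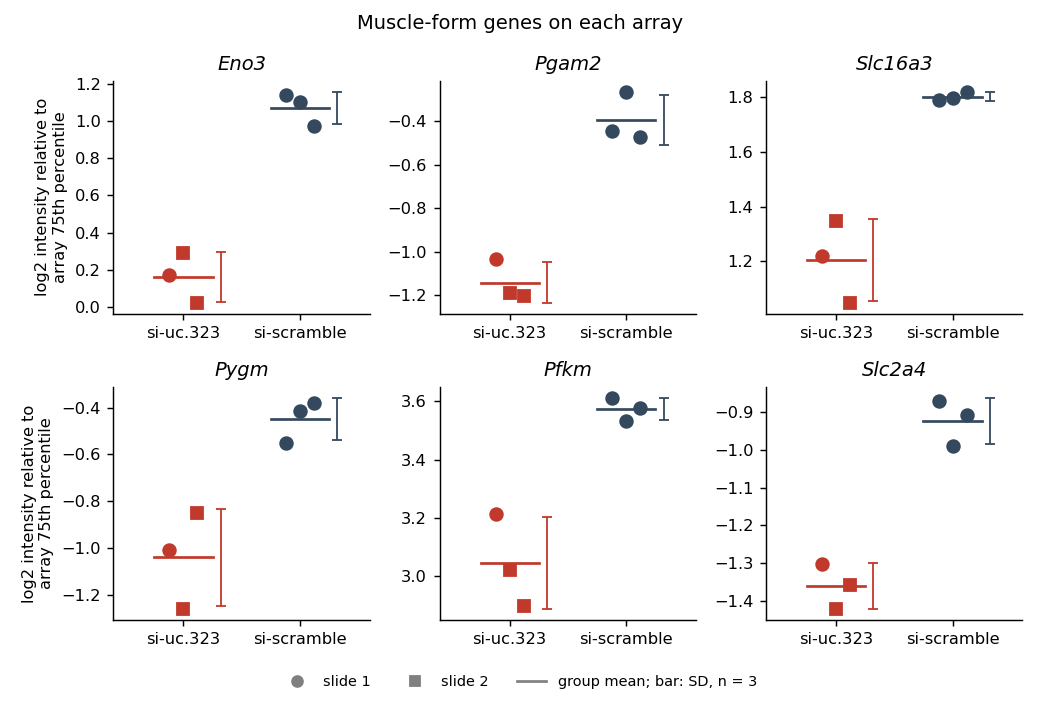
Log2 intensity relative to the array's 75th percentile (y axis, not starting at 0) of 6 muscle-form genes on each array, si-uc.323 left and si-scramble right, with circles for slide 1, squares for slide 2, a line for the group mean and a bar for its SD (n = 3). In all 6 panels the 3 si-uc.323 arrays sit below the 3 si-scramble arrays, by a log2 fold change of -0.91 for Eno3 and -0.44 for Slc2a4. These 6 have the largest falls among the 9 muscle forms set against a counterpart below. Not drawn are Ldha (-0.13, separate groups), and Aldoa (-0.0048) and Hk2 (0.08), whose groups overlapped. Of the 9, 7 (77.8%) had si-uc.323 wholly below si-scramble, against 19% of all named genes.

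The promoters of the 3 genes that fell are shown with those of Eno1 and Pgam1, the widely expressed partners of Eno3 and Pgam2, because members of a pair share an enzymatic reaction but not a promoter. RefSeq promoter windows (GRCr8; 250 bases before to 50 bases after the annotated start, 5′ to 3′) were found for 38 of the 40 members. Capitals mark matches on either strand to the E-box CANNTG, the MEF2 core (CTA, 4 bases of any kind, TAG), the MCAT element CATTCC and the hypoxia response cores ACGTG and GCGTG. Neighbouring matches can run together. Eno1 has 2 annotated starts, of which the one holding the E-box matches is printed. The window of the other start, not printed, holds the MCAT letters and both hypoxia cores, so what is displayed for Eno1 depends on this choice.

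Eno3 (GRCr8 chr10:55868936-55869235, + strand): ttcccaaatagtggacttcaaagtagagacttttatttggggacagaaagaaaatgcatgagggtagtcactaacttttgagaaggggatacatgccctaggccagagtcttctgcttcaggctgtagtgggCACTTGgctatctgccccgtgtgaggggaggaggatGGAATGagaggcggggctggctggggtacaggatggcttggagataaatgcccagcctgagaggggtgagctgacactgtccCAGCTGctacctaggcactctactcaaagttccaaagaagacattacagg
Pgam2 (GRCr8 chr14:84897825-84898124, - strand): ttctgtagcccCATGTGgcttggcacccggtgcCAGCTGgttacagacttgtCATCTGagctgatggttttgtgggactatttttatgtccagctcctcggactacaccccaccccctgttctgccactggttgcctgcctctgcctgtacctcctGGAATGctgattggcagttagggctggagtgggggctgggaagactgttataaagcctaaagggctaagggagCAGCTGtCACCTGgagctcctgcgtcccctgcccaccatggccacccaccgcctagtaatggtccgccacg
Slc16a3 (GRCr8 chr10:106712078-106712377, + strand): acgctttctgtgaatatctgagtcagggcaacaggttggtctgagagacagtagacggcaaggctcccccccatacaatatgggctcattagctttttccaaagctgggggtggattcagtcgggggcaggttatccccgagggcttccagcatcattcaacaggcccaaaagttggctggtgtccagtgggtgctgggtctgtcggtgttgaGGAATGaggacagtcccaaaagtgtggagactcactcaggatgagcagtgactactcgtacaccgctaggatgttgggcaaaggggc
Eno1 (GRCr8 chr5:166002617-166002916, + strand): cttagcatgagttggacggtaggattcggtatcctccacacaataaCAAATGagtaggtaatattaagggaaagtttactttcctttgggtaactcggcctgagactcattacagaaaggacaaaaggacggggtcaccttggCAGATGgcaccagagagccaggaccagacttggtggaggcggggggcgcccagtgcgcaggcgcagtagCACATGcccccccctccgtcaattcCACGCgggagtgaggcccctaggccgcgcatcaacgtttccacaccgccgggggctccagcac
Pgam1 (GRCr8 chr1:250672902-250673201, + strand): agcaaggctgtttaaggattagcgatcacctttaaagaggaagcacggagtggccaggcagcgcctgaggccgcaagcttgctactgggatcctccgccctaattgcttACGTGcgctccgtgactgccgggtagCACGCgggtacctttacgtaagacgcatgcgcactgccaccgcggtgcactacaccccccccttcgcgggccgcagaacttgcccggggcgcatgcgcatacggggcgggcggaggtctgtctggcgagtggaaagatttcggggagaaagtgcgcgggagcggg

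The window of Eno3 held 2 E-box matches and that of Pgam2 held 5, against 3 in the printed Eno1 window and none in the Pgam1 and Slc16a3 windows. An E-box match is common, being present in 64.5% of the windows of all tested genes, so its presence sets no gene apart. The MCAT letters occurred in the Eno3, Pgam2 and Slc16a3 windows, 82, 94 and 37 bases before the annotated start. Over all members they occurred in 6 of 42 windows (14.3%), near the 11.9% of the windows of all tested genes. They also occurred in the windows of Eno1 (its other start), Gapdh and Hk1, which did not pass the test. MCAT elements are known as sites of TEAD factors in muscle genes, and E-boxes as sites of myogenic and other helix-loop-helix factors. The hypoxia core ACGTG was present in 22 of 42 member windows (52.4%), against 24.1% of the windows of tested genes. The other core, GCGTG, was present in 19 of 42 (45.2%), against 46.1%, so the 2 cores differed in this. Neither core occurred in the Eno3, Pgam2 and Slc16a3 windows. The MEF2 core occurred only in the 2 Aldoa windows among the members, against 3.1% of the windows of tested genes. These matches describe letters in a short window and say nothing of a factor's binding.

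Transport of glucose and lactate showed 1 lower call among 4 genes (25%, against 2.89% of all named genes). All 4 had negative values (median log2 fold change -0.26). Slc2a4, the insulin-responsive glucose carrier of muscle and fat, read -1.30, -1.42 and -1.36 on the si-uc.323 arrays, against -0.87, -0.99 and -0.91 on the si-scramble arrays. The groups did not overlap, and the log2 fold change of -0.44 ± 0.10 missed the threshold (limma adjusted p = 0.0562). It passed in 7 of 19 alternatives and in none that left out 1 array, with limma adjusted p-values between 0.0122 and 0.321. Slc2a1, the widely expressed glucose carrier, read 0.12, 0.34 and 0.33 on the si-uc.323 arrays, against 0.27, 0.46 and 0.33 on the si-scramble arrays. These groups overlapped, with a log2 fold change of -0.09 (unadjusted 95% interval -0.36 to 0.19). Slc16a1, the widely expressed lactate and pyruvate carrier, read 0.37, 0.27 and 0.24 on the si-uc.323 arrays, against 0.26, 0.30 and 0.39 on the si-scramble arrays, and overlapped as well (-0.02, interval -0.27 to 0.22).

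In upper glycolysis, from hexokinase to triose phosphate isomerase, none of 9 genes passed the test, and 7 of 9 had negative values (median log2 fold change -0.25). Pfkm, the muscle subunit of phosphofructokinase, the main control point of the pathway, read 3.21, 3.02 and 2.90 on the si-uc.323 arrays, against 3.61, 3.53 and 3.58 on the si-scramble arrays. The groups were separate and the log2 fold change of -0.53 ± 0.12 did not pass (limma adjusted p = 0.0512). It passed in 5 of 19 alternatives and in none that left out 1 array, with adjusted p-values between 0.0161 and 0.339. Within slide 1 it was -0.36, the smallest of the 3 replicate values, with -0.55 and -0.67 on replicates 2 and 3.

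The other phosphofructokinase subunits showed the same sign. Pfkl, the liver subunit, read -0.47, -0.45 and -0.02 on the si-uc.323 arrays, against -0.09, 0.19 and 0.13 on the si-scramble arrays, where si-uc.323 replicate 3 reached into the si-scramble range. Pfkp, the platelet subunit, read 3.84, 3.75 and 3.44 on the si-uc.323 arrays, against 4.04, 3.98 and 4.16 on the si-scramble arrays, with no overlap. Both had a log2 fold change of -0.39 and neither passed (limma adjusted p = 0.166 for Pfkl and 0.129 for Pfkp). The second Pfkl probe read -0.08. Tpi1, triose phosphate isomerase, read 3.84, 3.94 and 3.83 on the si-uc.323 arrays, against 4.12, 4.16 and 4.18 on the si-scramble arrays, a log2 fold change of -0.29 without overlap (limma adjusted p = 0.127).

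Hexokinase traps glucose in the cell, and its forms had opposite signs. Hk1, the form bound to mitochondria in most tissues, read 3.80, 4.0 and 3.71 on the si-uc.323 arrays, against 4.04, 4.12 and 4.08 on the si-scramble arrays, just without overlap (log2 fold change -0.25, limma adjusted p = 0.222). Hk2, the insulin-responsive form of muscle, read -3.07, -3.25 and -3.16 on the si-uc.323 arrays, against -3.23, -3.26 and -3.24 on the si-scramble arrays, and the groups overlapped (0.08, limma adjusted p = 0.635). Hk2 was thus the single muscle form of the isoform pairs with a positive value, a sign that was negative in 5 of 19 alternatives (normexp, quantile, cyclic loess, the median shift and the authors' series values). Aldolase, which splits the hexose, had values near 0 in both forms. Aldoa, its muscle form, read 1.61, 1.18 and 1.74 on the si-uc.323 arrays, against 1.58, 1.43 and 1.53 on the si-scramble arrays. Aldoc, the brain form, read 2.04, 2.19 and 1.82 on the si-uc.323 arrays, against 2.01, 1.99 and 1.99 on the si-scramble arrays. The si-uc.323 samples were spread on both sides of the si-scramble samples in each case, with log2 fold changes of -0.0048 for Aldoa (interval -0.39 to 0.38) and 0.02 for Aldoc (-0.28 to 0.32). Gpi, glucose phosphate isomerase, stood at -0.15 with separate groups (limma adjusted p = 0.356).

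The bifunctional Pfkfb enzymes set the level of the sugar bisphosphate that activates phosphofructokinase, and 2 of the 3 tested had positive values. Pfkfb1 read -3.20, -2.95 and -2.88 on the si-uc.323 arrays, against -3.39, -3.36 and -3.30 on the si-scramble arrays. Its groups did not overlap, and the log2 fold change of 0.34 ± 0.12 did not pass (limma adjusted p = 0.132), nor under any of the 19 alternatives. It was 0.15 within slide 1 and 0.40 and 0.47 on the replicates of the brighter slide 2. Pfkfb3, the inducible form, stood at 0.25 (adjusted p = 0.323) and at -0.0052 within slide 1, and Pfkfb2, the heart form, at -0.03 (adjusted p = 0.927), its dimmer probe, not above background on every array, having the opposite sign. Pfkfb4 was well above background on 2 of 3 si-uc.323 arrays and on none of 3 si-scramble arrays, and was not tested.

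In lower glycolysis all 8 genes had negative values (median log2 fold change -0.24). Of them Eno3 and Pgam2 fell (25%, against 2.89% of all named genes). The partner of Pgam2, the widely expressed Pgam1, read 4.53, 4.16 and 4.10 on the si-uc.323 arrays, against 4.21, 4.22 and 4.39 on the si-scramble arrays. The groups overlapped and the log2 fold change was -0.01, with an unadjusted 95% interval of -0.36 to 0.33. Eno1, the widely expressed enolase, read 1.84, 1.64 and 1.97 on the si-uc.323 arrays, against 1.82, 2.11 and 2.14 on the si-scramble arrays. These overlapped too (-0.20, interval -0.54 to 0.13; limma adjusted p = 0.392). Eno2, the neuronal enolase, stood at -0.28 (adjusted p = 0.311), Pkm, pyruvate kinase, at -0.21 (adjusted p = 0.432) and Pgk1, phosphoglycerate kinase, at -0.06 (adjusted p = 0.797).

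Gapdh, which oxidises the triose phosphate and often serves as a reference gene, had 3 probes. The brightest read 3.30, 3.09 and 3.21 on the si-uc.323 arrays, against 3.54, 3.44 and 3.42 on the si-scramble arrays. Its log2 fold change was -0.27 ± 0.11 with separate groups and did not pass (limma adjusted p = 0.169). The other probes read -0.12 and -0.49, and with every probe tested on its own the last had an adjusted p of 0.0469 in limma. Gapdh has many processed copies in rodent genomes, so which transcripts each probe reads is uncertain.

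**Figure D2:**
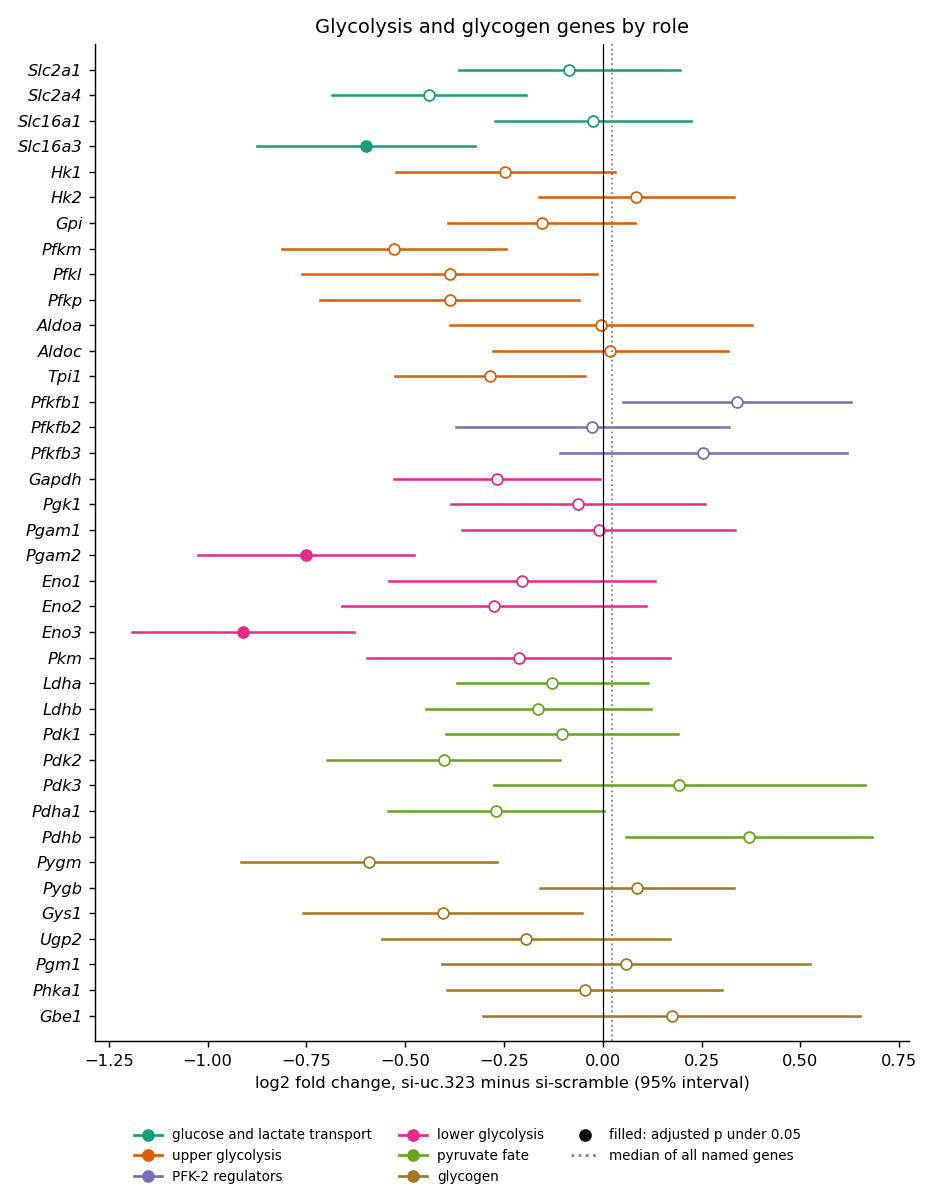
Log2 fold change, si-uc.323 minus si-scramble, with its unadjusted 95% interval (x axis) for the 38 tested members (y axis), coloured by role; filled points have an adjusted p under 0.05 and the dotted line is the median of all named genes, 0.02. The filled points are Slc16a3, Pgam2 and Eno3, and 29 of the 38 points lie left of 0.

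At the fate of pyruvate no gene of 7 passed the test (median log2 fold change -0.13). Pdk2, a kinase that switches off pyruvate dehydrogenase, read 0.23, 0.11 and 0.39 on the si-uc.323 arrays, against 0.52, 0.68 and 0.74 on the si-scramble arrays, without overlap (-0.40 ± 0.13, limma adjusted p = 0.0965). The enzyme's own subunits had opposite signs. Pdhb, the beta subunit, read 1.84, 1.49 and 1.80 on the si-uc.323 arrays, against 1.44, 1.27 and 1.32 on the si-scramble arrays. Pdha1, the alpha subunit, read 3.48, 3.54 and 3.30 on the si-uc.323 arrays, against 3.69, 3.64 and 3.79 on the si-scramble arrays. Neither pair of groups overlapped, with log2 fold changes of 0.37 ± 0.13 for Pdhb (limma adjusted p = 0.129) and -0.27 ± 0.12 for Pdha1 (adjusted p = 0.184). Pdhb passed in 2 of 19 alternatives, with array weights and without si-uc.323 replicate 2 (0.48, limma adjusted p = 0.0429), and had adjusted p-values of 0.219 to 0.356 with any other single array left out. Pdk1 stood at -0.10 and Pdk3 at 0.19, both overlapping.

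Lactate dehydrogenase interconverts pyruvate and lactate. Ldha, the muscle subunit, read 5.00, 5.00 and 4.89 on the si-uc.323 arrays, against 5.10, 5.05 and 5.12 on the si-scramble arrays. Ldhb, the heart subunit, read 4.46, 4.30 and 4.46 on the si-uc.323 arrays, against 4.64, 4.41 and 4.66 on the si-scramble arrays. The groups were separate for Ldha and overlapped for Ldhb, and the log2 fold changes were small, -0.13 for Ldha (limma adjusted p = 0.455) and -0.16 for Ldhb (adjusted p = 0.418).

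Among the glycogen genes none of 7 tested passed (median log2 fold change -0.05). Pygm, the muscle glycogen phosphorylase, which releases glucose units from glycogen, read -1.01, -1.26 and -0.85 on the si-uc.323 arrays, against -0.55, -0.41 and -0.38 on the si-scramble arrays. The groups were separate, and the log2 fold change of -0.59 ± 0.14 did not pass (limma adjusted p = 0.0532). It passed in 9 of 19 alternatives, with adjusted p-values between 0.00875 and 0.287. It was -0.56 within slide 1. Pygb, the brain phosphorylase, read 0.66, 0.57 and 0.73 on the si-uc.323 arrays, against 0.57, 0.55 and 0.58 on the si-scramble arrays, overlapping at a log2 fold change of 0.09 (interval -0.16 to 0.33). Gys1, the muscle glycogen synthase, read 2.39, 2.56 and 2.05 on the si-uc.323 arrays, against 2.80, 2.73 and 2.68 on the si-scramble arrays. Its groups did not overlap (-0.41 ± 0.15, limma adjusted p = 0.138), while its dim second probe read -0.02. The remaining tested genes, Ugp2, Pgm1, Phka1 and Gbe1, which prepare or branch the polymer or regulate its breakdown, had overlapping groups and log2 fold changes between -0.19 and 0.17. Phkg1, the muscle catalytic subunit of phosphorylase kinase, was not well above background on any array.

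The muscle form was set against its counterpart in 10 pairs by taking the difference of both log2 levels within each array, which any constant scaling of an array leaves unchanged. The difference was lower with si-uc.323 in 8 of 10 pairs, and in 4 of them the groups did not overlap. With 3 samples against 3 the exact 2-sided permutation test cannot go below p = 0.1, and no pair can pass after adjustment over the pairs, so the changes are given as sizes with the SE from the spread of both groups. The 4 separate pairs each had an exact permutation p of 0.1, adjusted to 0.2. Pgam2 minus Pgam1 changed by -0.74 ± 0.14, with si-uc.323 samples at -0.90, -0.68 and -0.64 relative to the si-scramble mean and si-scramble samples at 0.01, 0.18 and -0.19. Eno3 minus Eno1 changed by -0.71 ± 0.23, with si-uc.323 samples at -0.72, -0.40 and -1.0 and si-scramble samples at 0.27, -0.05 and -0.22. The enolase pair had the larger SE of these. Pygm minus Pygb changed by -0.68 ± 0.09, with si-uc.323 samples at -0.65, -0.82 and -0.57 and si-scramble samples at -0.11, 0.05 and 0.06. Slc16a3 minus Slc16a1 changed by -0.57 ± 0.09, with si-uc.323 samples at -0.63, -0.41 and -0.68 and si-scramble samples at 0.04, 0.01 and -0.05.

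For glucose carriers the groups overlapped, as Slc2a4 minus Slc2a1 changed by -0.35 ± 0.14 (exact permutation p = 0.2) and by -0.15 within slide 1. Among phosphofructokinase subunits, Pfkm minus Pfkp differed by -0.14 ± 0.07 (exact permutation p = 0.2). Pfkm minus Pfkl differed by -0.14 ± 0.25 (exact permutation p = 0.8) and by 0.18 within slide 1. Aldoa minus Aldoc (-0.02 ± 0.27) and Ldha minus Ldhb (0.04 ± 0.10) lay near 0. Hk2 minus Hk1 went the other way, by 0.33 ± 0.13 with separate groups (exact permutation p = 0.1), and by 0.13 with normexp or cyclic loess. Of the 9 genes placed first in these pairs, 3 fell (33.3%) and their median log2 fold change was -0.53. None of the other 29 tested members fell (0%), and their median was -0.10. Over all named genes 2.89% fell, so the count among the 29 was near that share. The pairs were chosen with earlier results of these data known. Those 29 still hold muscle genes outside the pairs, such as Gys1 (-0.41) and Phka1, the muscle subunit of phosphorylase kinase (-0.05). By replicate of si-uc.323, the 9 genes had medians of -0.38, -0.50 and -0.44. The lower sum of cardiac myocyte markers given above, a difference mostly of Actc1, moved in the same direction, and its part in these values was not tested. The 9 tested genes of a skeletal muscle marker list had a median log2 fold change of 0.00, with Actn3 lower (-0.58) and Myh1 higher (0.69).

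**Figure D3:**
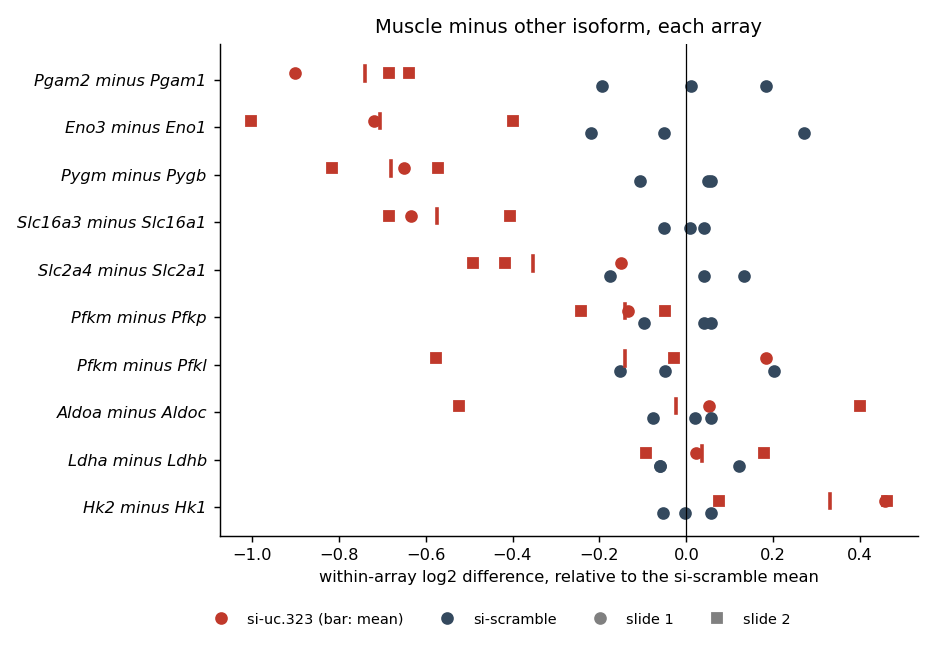
Difference of log2 levels within each array, muscle form minus counterpart, relative to the si-scramble mean of that pair (x axis) for 10 pairs (y axis), si-uc.323 in the upper row of points with its mean as a bar and si-scramble in the lower, circles for slide 1 and squares for slide 2. The pairs Pgam2 minus Pgam1, Eno3 minus Eno1, Pygm minus Pygb and Slc16a3 minus Slc16a1 have all si-uc.323 points left of the si-scramble points, with mean changes between -0.74 and -0.57.

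Other genes of glucose handling were counted in the same fit. Of 29 tested further glycolytic and glycogen genes, 2 fell (6.90%, against 2.89% of all named genes) and 1 rose (3.45%, against 3.26%), and their median log2 fold change was -0.09. Slc2a12, another glucose carrier of insulin-sensitive tissues, read -1.45, -1.36 and -1.61 on the si-uc.323 arrays, against -0.65, -0.66 and -0.58 on the si-scramble arrays (log2 fold change -0.84 ± 0.11, limma adjusted p = 0.0202). Gys2, the glycogen synthase known from liver, read -5.45, -5.25 and -4.73 on the si-uc.323 arrays, against -3.70, -4.07 and -3.79 on the si-scramble arrays (-1.29 ± 0.20, limma adjusted p = 0.0267). Stbd1, which tethers glycogen to membranes and is linked to its delivery to lysosomes, rose, reading -0.46, -0.61 and -0.50 on the si-uc.323 arrays, against -1.10, -1.22 and -1.21 on the si-scramble arrays (0.66 ± 0.11, limma adjusted p = 0.027). The groups of all 3 genes were separate. None of 20 tested genes of pyruvate entry and the pentose phosphate path passed (median -0.08). At an unadjusted p under 0.05 in limma 4 of them were lower (20%, against 13.3% of all named genes). None was higher at that mark (0%, against 16.7%). Pdk4, the fasting-induced pyruvate dehydrogenase kinase, stood at -0.34 (limma adjusted p = 0.0883).

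Of 36 tested regulators of glucose metabolism, 2 fell (5.56%, against 2.89% of all named genes) and none rose (against 3.26%), with a median of -0.05. Klf15, a factor known to induce Slc2a4 in muscle, read 1.39, 1.11 and 1.11 on the si-uc.323 arrays, against 1.98, 2.04 and 2.13 on the si-scramble arrays (-0.85 ± 0.13, limma adjusted p = 0.023). Mef2a, a factor that binds many muscle promoters, read -1.58, -1.81 and -1.78 on the si-uc.323 arrays, against -1.01, -1.25 and -1.13 on the si-scramble arrays (-0.59 ± 0.12, limma adjusted p = 0.0417). Both were without overlap. Hif1a, the oxygen-regulated inducer of glycolytic genes, stood at 0.29 (limma adjusted p = 0.318). Among 14 tested hypoxia targets outside glycolysis 1 rose and 1 fell (7.14% each, against 3.26% and 2.89% of all named genes). P4ha1, a collagen prolyl hydroxylase, had a log2 fold change of 0.72 ± 0.16 (limma adjusted p = 0.0461), and Egln3, a HIF prolyl hydroxylase, one of -0.60 ± 0.12 (limma adjusted p = 0.0376). Their list median was -0.07.

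**Figure D4:**
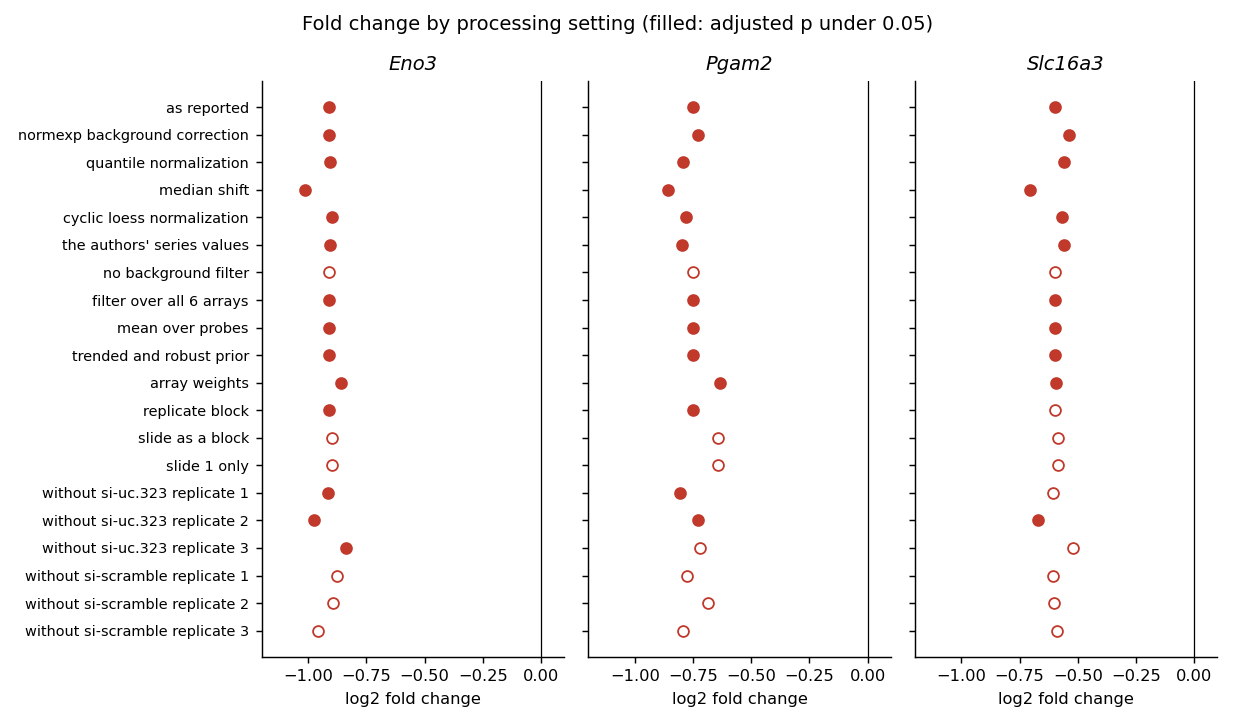
Log2 fold change, si-uc.323 minus si-scramble (x axis), of Eno3, Pgam2 and Slc16a3 as reported and under 19 alternative settings (y axis); filled points have an adjusted p under 0.05. All values are negative, between -1.01 and -0.84 for Eno3, -0.86 and -0.63 for Pgam2 and -0.70 and -0.52 for Slc16a3, while 13, 12 and 10 of the 19 alternatives keep the call. Quantile normalization and the authors' series values, counted separately, gave nearly the same values.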

How the data were processed

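Total RNA of 6 myocyte cultures, 3 per group, was read on Agilent arrays (design 028282, Cy3 only), with 1 array for each culture. Per the file headers and the submitters' processing notes, the authors quantified them with Agilent Feature Extraction 11.0.1.1, and the deposited intensity is background-subtracted and detrended within an array. The deposited series table of the authors holds log2 values with a median of 6.51 in every column, which correlated with the scanner values. How they were normalized is not given in the sources used here, and they served as an alternative. They nearly repeated quantile normalization (Eno3 at -0.905 and -0.904, with 979 and 987 genes called), so these 2 alternatives are not separate checks. Control spots, 322 to 594 flagged spots per array and 44 probes with a missing value were left out, and no spot was saturated. The log2 intensity was shifted by the array's 75th percentile and spots of a probe averaged. A probe was kept if every array of at least 1 group had it well above background. Of 30367 probes, 18005 were named through RefSeq accessions (GRCr8). The brightest probe stood for a gene, giving 19920 features with unnamed probes. The 2 groups were tested in limma 3.58.1 (lmFit, eBayes; R 4.3.3), without covariates, at a Benjamini-Hochberg adjusted p under 0.05, after a test on simulated data. Slides were read from the scan identifiers in the headers. All 40 members are accounted for by a fixed rule, with sample values for isoform pairs and for members at an unadjusted p under 0.05. From each further list up to 4 called genes are named. Members and lists were chosen with earlier results of these data known. Alternatives covered background correction (normexp with an offset of 50 on median spot intensity, as the files hold no mean), normalization, filters, probe choice, variance prior, weights, blocks, slide and each array left out. The number of arrays limits the precision. Figures were drawn with matplotlib 3.10.9.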

Additional observations from a re-analysis of the deposited data

Results flagged for a closer look

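Pfkfb4, a bifunctional regulator of phosphofructokinase, was outside the test because its probe was not well above background on all arrays of either group, yet it read higher on every si-uc.323 array. Its log2 levels were -6.87, -6.16 and -5.81 on si-uc.323 arrays, 2 of the 3 well above background, against -7.91, -7.62 and -7.02 on si-scramble arrays, none of them well above background. The difference of these readings was 1.24 on the log2 scale and no test was made. Every si-scramble value lay below the lowest level well above background on its array (-6.51 to -6.33). So did si-uc.323 replicate 1 (-6.38), and the size of the difference is therefore uncertain. With the si-scramble values raised to that lowest level, it was 0.14. The 2 arrays on which it was above background were those of slide 2, where more probes passed that mark (78.2% and 86.5%), and on slide 1 the probe was not well above background in either group. The part of the slide was not tested.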

How the results depend on the processing

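The count of members that fell (3) was 6 with normexp, with a median shift and with a trended prior, 5 under quantile and cyclic loess normalization, on the authors' series values and with a filter over all 6 arrays, and 11 with array weights, which also gave 1 member higher. It was 0 without a background filter, with the slide as a block and on slide 1 alone, and 0 to 4 with single arrays left out (0 to 1 higher). The median of the members (-0.16) was -0.26 with the median shift, which moved the median of all features from 0.04 to -0.06; relative to that median it was -0.20 in both, -0.10 with normexp, -0.13 under quantile and -0.14 under cyclic loess normalization. Over all genes 712 passed (377 higher, 335 lower; 52.9% higher), against 783 with the median shift (35.6% higher), 42.6% higher with normexp, 41.4% with quantile normalization and 43.0% with cyclic loess. The count was 1182 with cyclic loess, 1172 with the trended prior, 3397 with array weights, 404 with the replicate block, 3 with the slide as a block (1769 at an unadjusted p under 0.05), 25 on slide 1, 0 without a background filter (3110 at an unadjusted p under 0.05) and 0 to 1794 with single arrays left out. The cause of these shifts was not tested. Same-numbered samples deviated together at r = 0.205, 0.390 and -0.116, so the numbers were not taken as pairs; with the replicate number as a block 2 members fell, Slc16a3 missing (adjusted p = 0.0664). Of 722 member values under alternatives, 671 kept their side of the threshold, 29 passed newly and 22 no longer passed; no called value changed sign. The slide block rests on si-uc.323 replicate 1 alone. The number of separate pairs with a lower muscle form stayed within 1.5 times the reported 4 in the alternatives run for the pairs. Dim members near background, such as Pfkfb4 and Phkg1, are limited by signal.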
